A study of Mus musculus with 29 samples.

Results

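The core circadian clock genes *Clock*, *Arntl* (which encodes BMAL1), *Per1*, *Per2*, *Per3*, *Cry1*, *Cry2*, *Nr1d1*, *Nr1d2* and *Dbp* were examined in sorted bipolar cells and photoreceptors of the adult mouse retina. They were chosen by name, and all 10 were found among the 24062 genes of the expression table. RNA-seq was available for 15 libraries, 3 for each of 5 populations, and ATAC-seq counts, which measure how open the chromatin is to a transposase, for 12 libraries, 2 for each of 6 populations. All bipolar cells together (pan-BC) were sorted by GFP fluorescence, for RNA from mice of genotype Otx2-GFP+/-. Bipolar cells of the ON type (ON-BC), those of the OFF type (OFF-BC) and, by the labels, also the pan-BC of ATAC-seq were taken from animals of genotype Otx2-GFP+/-; Grm6-YFP+/+. In these mice GFP is knocked into 1 copy of Otx2, so that every bipolar library carries that change, photoreceptors are weakly fluorescent as well, and YFP under the Grm6 promoter marks ON-BC. OFF-BC were sorted a second time, and each ON-BC and OFF-BC RNA library was pooled from more than 1 mouse. Rods came from Nrl-eGFP mice and blue cones from Nrl-eGFP;NrlKO mice, whose photoreceptors lack the rod factor Nrl and stand in for cones that express *Opn1sw*. Green cones, measured by ATAC-seq and not by RNA-seq here, came from Opn1mw-GFP mice. The labels give no treatment. The mice were at postnatal day 42 to 48 for the bipolar RNA libraries, at 42 to 46 for the bipolar ATAC-seq libraries and at 56 for all photoreceptors, whose libraries the same laboratory had made for an earlier study. Cell class, mouse line with its genotype, study and age therefore cannot be told apart in any comparison of bipolar cells with photoreceptors. The time of day at which retinas were collected is not given in the sources used here.

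The clock runs as a feedback loop of transcription. CLOCK and BMAL1 form a dimer that binds E-box sequences and activates the Per and Cry genes, whose proteins return to the nucleus and repress it, and the same dimer activates *Nr1d1*, *Nr1d2* and *Dbp*. The REV-ERB receptors encoded by *Nr1d1* and *Nr1d2* repress *Arntl* through ROR elements, where the ROR receptors activate, and DBP drives output genes through D-box sequences. The retina holds a clock of its own, and the transcripts of most of these genes rise and fall over the day, so that a level in a library is a level at the unrecorded hour at which its cells were taken.

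The sequences upstream of the start sites show where the letters of this circuit lie. For 9 of the 10 members (*Per2* was the exception) RefSeq promoters of build GRCm38.p6 were at hand, with 13 annotated start sites. The 250 bases before each start site were searched on both strands for the E-box CACGTG, its variant CACGTT, the D-box TTATGTAA and AGGTCA, the core letters of a ROR element. Of all 32851 promoters of this length, 6.02% held CACGTG, 3.85% held CACGTT, 0.82% held TTATGTAA and 14.02% held AGGTCA. Matches were found upstream of 7 members. The promoters of *Per1*, *Per3*, *Cry1*, *Cry2* and *Nr1d1* are given here from 5′ to 3′ in the direction of transcription, because these hold E-box, E-box variant or D-box letters inside a region in which ATAC-seq reads were counted. Capitals mark the matches.

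Per1: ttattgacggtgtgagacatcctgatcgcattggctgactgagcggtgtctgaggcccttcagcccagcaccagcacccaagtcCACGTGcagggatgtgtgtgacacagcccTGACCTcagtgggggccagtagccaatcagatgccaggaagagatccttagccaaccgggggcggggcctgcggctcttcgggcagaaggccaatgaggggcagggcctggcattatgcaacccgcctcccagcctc
Per3: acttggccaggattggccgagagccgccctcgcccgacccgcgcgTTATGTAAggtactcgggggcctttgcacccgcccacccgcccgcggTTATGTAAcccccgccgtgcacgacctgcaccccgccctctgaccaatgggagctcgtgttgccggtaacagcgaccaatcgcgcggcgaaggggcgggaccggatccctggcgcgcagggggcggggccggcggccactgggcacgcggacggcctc
Cry1: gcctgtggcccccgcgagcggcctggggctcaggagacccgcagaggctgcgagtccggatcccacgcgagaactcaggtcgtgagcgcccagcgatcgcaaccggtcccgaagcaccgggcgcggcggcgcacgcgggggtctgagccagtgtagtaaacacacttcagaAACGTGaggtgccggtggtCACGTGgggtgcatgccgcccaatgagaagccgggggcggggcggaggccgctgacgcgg
Cry2: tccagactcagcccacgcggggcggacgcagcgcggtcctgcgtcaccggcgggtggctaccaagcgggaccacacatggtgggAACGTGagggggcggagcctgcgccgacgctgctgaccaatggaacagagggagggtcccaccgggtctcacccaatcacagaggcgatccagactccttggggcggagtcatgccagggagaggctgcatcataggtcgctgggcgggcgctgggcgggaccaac
Nr1d1: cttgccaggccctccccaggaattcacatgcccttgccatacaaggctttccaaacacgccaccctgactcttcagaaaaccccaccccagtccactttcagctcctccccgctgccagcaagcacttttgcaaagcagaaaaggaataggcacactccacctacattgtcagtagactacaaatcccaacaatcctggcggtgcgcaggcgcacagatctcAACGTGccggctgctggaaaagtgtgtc

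The *Per1* stretch (chr11:69098699-69098948, plus strand) holds CACGTG 166 bases before the start site and AGGTCA, on the other strand, 137 bases before it. In the *Per3* stretch (chr4:151044666-151044915, minus strand) TTATGTAA stands both 205 and 158 bases before the start site. That of *Cry1* (chr10:85185055-85185304, minus strand) holds CACGTG 60 bases and CACGTT, on the other strand, 79 bases before its start. The *Cry2* stretch (chr2:92434070-92434319, minus strand) holds CACGTT on the other strand 166 bases before the start. The *Nr1d1* stretch (chr11:98775378-98775627, minus strand) holds CACGTT on the other strand 28 bases before the start. In none of these do 2 matches overlap. Beyond these, AGGTCA stood 77 bases before that of *Nr1d2* and 119 bases before 1 start site of *Clock*, while the windows of *Arntl* and *Dbp* held none of the 4. A match of letters is not evidence of binding.

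By the summed levels of marker genes the libraries matched their labels as bipolar cells, rods or blue cones. All levels are normalized counts (reads divided by 1 size factor per library). The bipolar sum pools markers of ON and of OFF cells, so it does not check the labels pan-BC, ON-BC and OFF-BC. The 8 bipolar markers summed to between 106558 and 156687 in the 9 bipolar libraries and to between 1477 and 2056 in rods. The 5 rod markers summed to between 1393580 and 2019160 in rods, to between 16791 and 22920.5 in pan-BC and ON-BC and to between 861 and 1394 in OFF-BC. The 5 cone markers summed to between 1410890 and 1633540 in blue cones, to between 40493 and 66190 in pan-BC and to between 4047 and 4666 in ON-BC. In OFF-BC they summed to 22366, 20732 and 89734, so that OFF-BC replicate 3 stood apart. Blue cones held bipolar markers at 26328 to 30641. Over all 15 libraries the 5 Müller glia markers summed to between 972 and 3152, the 5 amacrine markers to between 226 and 2427, the 3 horizontal markers to between 1.94 and 99, the 4 ganglion markers to between 32 and 274, the 3 pigment epithelium markers to between 7.21 and 115, the 3 endothelial markers to between 4.51 and 194 and the 3 microglial markers to between 7.45 and 221. At 0 in every library of a population stood *Gad2* in blue cones, *Lhx1* and *Onecut1* in rods, *Slc17a6* in OFF-BC and rods, *Rpe65* in OFF-BC, *Cldn5* in ON-BC and *Cdh5* in OFF-BC. The part of carried-over RNA in the values below was not tested, and in sorted populations fewer cells that express a gene and less RNA per cell cannot be told apart.

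Between bipolar cells and rods, members of the loop differed in both directions, and the share that differed at all was not above that of all genes. Between pan-BC and rods, *Per2*, *Per3*, *Cry2*, *Nr1d1* and *Dbp* were called higher in pan-BC and *Arntl* higher in rods. A gene was called when limma's test against a 2-fold difference, on log2(normalized count + 1), gave an adjusted p below 0.05. These were 5 of 10 members higher in pan-BC, against 27.8% of all 14024 genes tested, and 1 of 10 higher in rods, against 15.8%. At any difference (the same model tested against 0), 7 of 10 members were called, against 79.5% of all genes. The median log2 difference of the members was 1.625 and that of all genes 0.21, and the median absolute differences were 1.88 and 1.27. All 10 members passed the filter on low values.

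Against blue cones fewer members passed the 2-fold test. In that comparison *Per2* and *Dbp* were called at least 2-fold higher in pan-BC (2 of 10, background 22.7%) and *Arntl* higher in blue cones (1 of 10, background 13.7%), while all 10 members were called at any difference (background 76.3%). The count of 3 rests on single libraries: it fell to 1, *Dbp*, when pan-BC replicate 2, pan-BC replicate 3 or blue cone replicate 2 was left out. Of the members between ON-BC and OFF-BC, 0 of 10 were called at 2-fold by limma, against 2.95% of genes higher in ON-BC and 3.6% higher in OFF-BC, and 5 of 10 at any difference, against 27%. Between rods and blue cones *Dbp* was called higher in blue cones (1 of 10, background 11.3%), none was called higher in rods (background 4.63%), and 9 of 10 were called at any difference (background 57.5%). The comparisons share libraries, so their counts are not independent.

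**Figure D1:**
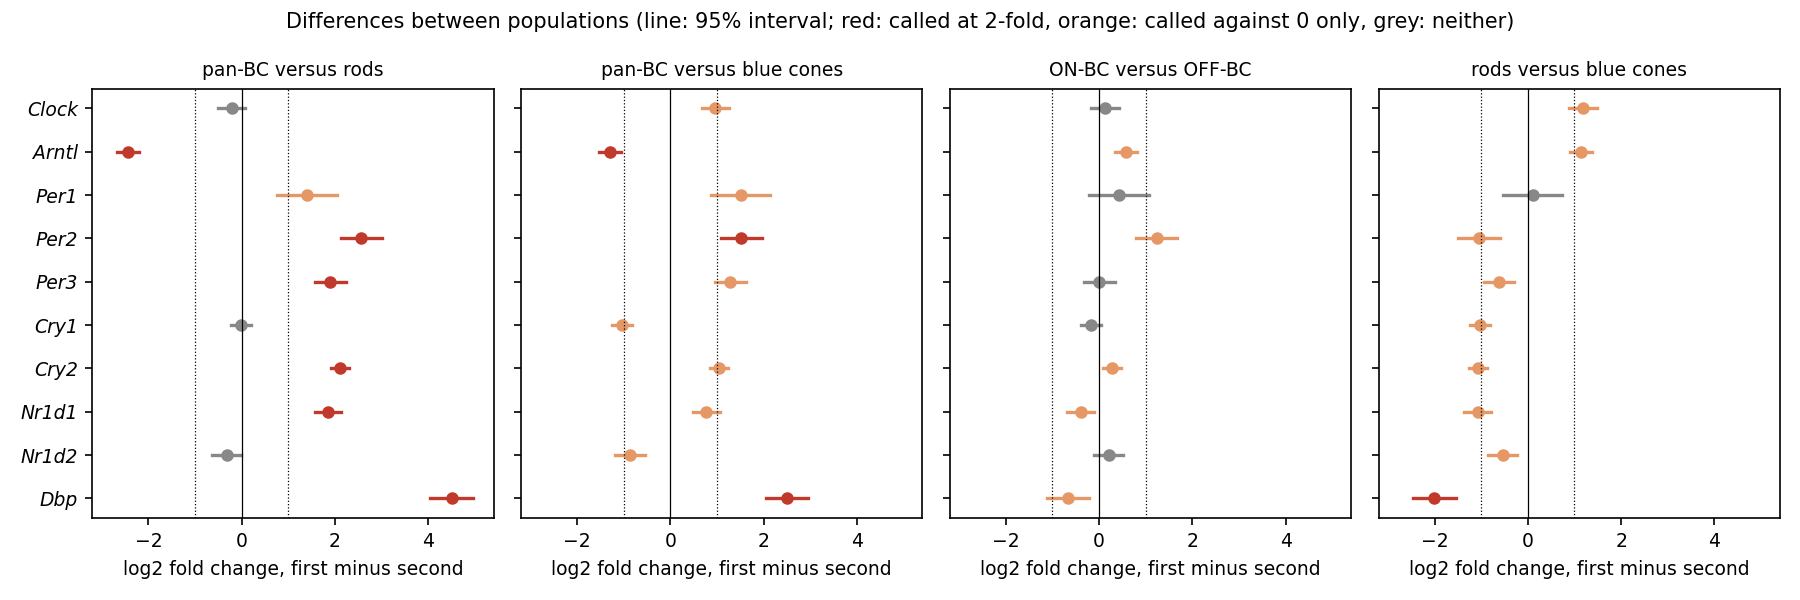
Log2 difference of each of the 10 core clock genes in 4 comparisons of populations (x axis: first population minus second, log2 scale; point: fitted value; line: 95% interval; dotted lines: a 2-fold difference). *Arntl* lies at -2.43 and *Dbp* at 4.50 between pan-BC and rods, while between ON-BC and OFF-BC all points but that of *Per2*, at 1.23, lie inside the dotted lines.

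In the activating arm, *Arntl* was higher in both photoreceptor populations than in bipolar cells, while *Clock* was lower in blue cones and was not separated between pan-BC and rods. *Arntl*, which encodes BMAL1 and lies at chr7:113207465-113314126 on the plus strand, was at 854, 686 and 773 normalized counts in pan-BC, at 1048, 867 and 924 in ON-BC and at 617, 672 and 605 in OFF-BC. It reached 3954, 3919 and 4567 in rods and 1937, 2020.0 and 1713 in blue cones. Every rod library lay above every blue cone library, and both lay above all 9 bipolar libraries. The level in rods was 5.38-fold that in pan-BC (log2 difference, pan-BC minus rods, -2.43, SE 0.11, adjusted p = 3.6e-09), and the level in blue cones was 2.45-fold that in pan-BC (-1.29, adjusted p = 0.0258). Rods also exceeded blue cones (1.13, adjusted p against 0 = 2.15e-07), though not by a called 2-fold (adjusted p = 0.531).

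*Clock*, the partner of BMAL1 (chr5:76209868-76304792, minus strand), was at 1769.9, 1727 and 1701 normalized counts in pan-BC, at 1931, 1888 and 1456 in ON-BC and at 1359, 1836 and 1652 in OFF-BC. In rods it was at 2020.0, 1962 and 2058 and in blue cones at 1098, 798 and 795. The 3 blue cone libraries were the lowest of the 15, and the 3 rod libraries the highest. Rods, ON-BC, pan-BC and OFF-BC, in that order of means, did not differ from their neighbours (adjusted p of 0.188, 0.99 and 0.633). The interval of the difference between pan-BC and rods ran from -0.51 to 0.08 on the log2 scale. Pan-BC exceeded blue cones 1.95-fold (log2 0.97, adjusted p against 0 = 9.46e-06), not called at 2-fold. Blue cones also lay below OFF-BC by 0.85 (adjusted p = 3.54e-05) and below rods by 1.18 (adjusted p = 1.99e-06).

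The period genes, whose proteins form the repressing complex with the cryptochromes, were all higher in pan-BC than in rods, but differed in how firmly. *Per2* (chr1:91415982-91459328, minus strand) was at 671, 681 and 793 normalized counts in pan-BC, at 887, 794 and 717 in ON-BC and at 284, 420.5 and 323 in OFF-BC. It was at 111, 176 and 87.5 in rods and at 274, 243 and 229 in blue cones. Rods were lowest, with no overlap with any other population, and pan-BC and ON-BC lay above all libraries of the other 3 populations. The difference between pan-BC and rods was 5.92-fold (log2 2.57, SE 0.21, adjusted p = 2.78e-06) and that between pan-BC and blue cones 2.87-fold (1.52, adjusted p = 0.0341).

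*Per3* (chr4:151003655-151044665, minus strand) was at 18976, 16017 and 18396 normalized counts in pan-BC. It was at 18846, 12287 and 15794 in ON-BC and at 15487, 14964 and 15563 in OFF-BC. Rods held 5051, 4411 and 4802 and blue cones 8721, 7223 and 6124. All 9 bipolar libraries lay above all 6 photoreceptor libraries, and blue cones above rods. *Per3* in pan-BC was 3.74-fold that in rods (log2 1.902, adjusted p = 4.79e-05), and the difference of rods minus blue cones was -0.62 (adjusted p against 0 = 0.0027).

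*Per1*, which responds to acute stimuli as well as to the clock (chr11:69098949-69109960, plus strand), was the member with the widest spread among replicates of ON-BC and OFF-BC (SD of 32.4% and 46.7% of the mean). It was at 719, 753 and 867 normalized counts in pan-BC, at 772, 582 and 1106 in ON-BC and at 692, 322 and 918 in OFF-BC. In rods it was at 331, 265 and 289 and in blue cones at 229, 244 and 364. OFF-BC replicate 2 lay within the range of the photoreceptors, and the other 8 bipolar libraries lay above it. In both ON-BC and OFF-BC, replicate 2 was the lowest and replicate 3 the highest. The difference between pan-BC and rods was 1.40 on the log2 scale (SE 0.30), past the test against 0 (adjusted p = 0.000423) but not past that against 2-fold (adjusted p = 0.206). It was called at 2-fold, with the same fitted difference, when the fit held pan-BC and rods alone (adjusted p = 0.0119). Against blue cones the difference was 1.504 (adjusted p for 2-fold = 0.139), and rods and blue cones were not separated (0.10, interval -0.53 to 0.74).

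Genes that mark recent stimulation and targets of glucocorticoids were summed beside *Per1*. The summed level of 11 immediate early genes, among them *Fos* and *Egr1*, was 7104, 3134 and 7866 in pan-BC, 2680, 13413 and 6932 in ON-BC and 1323, 1234 and 1316 in OFF-BC. ON-BC replicate 2 had the highest sum of its group and the lowest *Per1*. OFF-BC replicate 2 was lowest in both, though the OFF-BC sums lay close together where *Per1* spread from 322 to 918. Pan-BC replicate 3 was highest in both. The sums were 2513, 1847 and 2117 in rods and 8821, 8991 and 11741 in blue cones. Within each of these populations the replicates had the same order in the sum as in *Per1*. Between rods and blue cones the sums lay apart, while *Per1* was not called different. Of a list of 5 glucocorticoid targets, the sum was 38527 to 41915 in rods, mostly from *Sgk1*, and 3356 to 8209 in the other populations. The part of either list in the *Per1* values was not tested.

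The cryptochromes, the second component of the repressing complex, went different ways. *Cry2* (chr2:92403646-92434069, minus strand) was at 3316, 3490.3 and 3574 normalized counts in pan-BC, at 3506, 3598 and 3387 in ON-BC and at 2942, 2637 and 3102 in OFF-BC. It was at 864, 769 and 771 in rods and at 1594, 1647 and 1815 in blue cones. The order was bipolar cells, blue cones, rods, with no overlap between these 3 classes. Pan-BC exceeded rods 4.32-fold (log2 2.11, SE 0.09, adjusted p = 8.34e-09) and blue cones 2.05-fold (1.04, adjusted p against 0 = 2.82e-08, against 2-fold 0.688).

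*Cry1* (chr10:85131700-85185054, minus strand) was highest in blue cones. It was at 447, 511 and 494 normalized counts in pan-BC, at 665, 602 and 603 in ON-BC and at 709.7, 700.4 and 689.7 in OFF-BC. Rods held 498, 512 and 448 and blue cones 949, 983 and 1056. Blue cones lay above all other libraries, and pan-BC and rods overlapped. The difference between pan-BC and rods was -0.01 with an interval from -0.22 to 0.21 on the log2 scale, which leaves out a 2-fold difference in either direction at this scaling. When libraries were scaled by their total reads instead of by the deposited size factors, it was 0.34 (adjusted p against 0 = 0.00838). Pan-BC lay below blue cones by 1.04 (adjusted p against 0 = 7.86e-08), below OFF-BC by 0.53 (adjusted p = 0.00103) and below ON-BC by 0.36 (adjusted p = 0.0409), although pan-BC holds both kinds of cell.

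The REV-ERB receptors also parted. *Nr1d1* (chr11:98767932-98775377, minus strand), which encodes REV-ERBα, a repressor of *Arntl*, was at 14103, 13854 and 15140.1 normalized counts in pan-BC, at 11138, 13171 and 12093 in ON-BC and at 19302, 14772 and 14142 in OFF-BC. It was at 3697, 4548 and 3765 in rods and at 7730.1, 9016 and 8554 in blue cones. Every bipolar library lay above every blue cone library, and every blue cone library above every rod library. Pan-BC exceeded rods 3.60-fold (log2 1.85, adjusted p = 1.91e-05) and blue cones 1.71-fold (0.77, adjusted p against 0 = 6.24e-05). *Nr1d1* shares 263 bp, 9.51% of its 2765 bp of exon, with the gene *Thra* on the opposite strand, and *Thra* ranged over 1322 to 1430.3 in pan-BC, over 192 to 245 for rod libraries and over 178 to 229 for blue cone libraries.

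*Nr1d2* (chr14:18204056-18239106, minus strand), which encodes REV-ERBβ, was at 993, 1128 and 1272 normalized counts in pan-BC, at 1564, 1437 and 1510.3 in ON-BC and at 1053, 1352 and 1560.3 in OFF-BC. It was at 1604, 1218 and 1429.7 in rods and at 1777, 2015 and 2412 in blue cones. Blue cones were highest, and the other 4 populations did not differ from their neighbours in the order ON-BC, rods, OFF-BC and pan-BC (adjusted p of 0.576, 0.507 and 0.36). Between pan-BC and rods the difference was -0.32 (adjusted p against 0 = 0.0583). Scaled by library totals it was 0.03, so its sign is not settled. *Nr1d2* had the narrowest range of population means among the members, 1.82-fold.

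*Dbp* showed the widest range of all, 31.5-fold between the highest and the lowest population mean. This gene (chr7:45705247-45710203, plus strand) encodes a PAR bZIP activator and is a direct output of CLOCK and BMAL1. It was at 629.7, 676 and 685 normalized counts in pan-BC, at 508, 630.0 and 609 in ON-BC and at 1046, 841 and 888 in OFF-BC. Rods held 33, 31.8 and 21.6, which were 20 to 34 reads a library, and blue cones 93.3, 97.9 and 173. The 3 classes did not overlap, and within bipolar cells OFF-BC lay above the other 6 libraries. Pan-BC exceeded rods 22.7-fold (log2 4.50, SE 0.22, adjusted p = 1.7e-10) and blue cones 5.65-fold (2.50, adjusted p = 1.06e-05), and blue cones exceeded rods 4.01-fold (log2 difference, rods minus blue cones, -2.00, adjusted p = 0.00128). The last call was lost when rods and blue cones were fitted alone (adjusted p = 0.0845). Exons of *Dbp* share 539 bp, 32.12% of 1678 bp, with *Sphk2* on the opposite strand, and no strand step is described for the libraries, so that reads there cannot be told apart. *Sphk2* ranged over 196 to 260.3 in pan-BC and 91.3 to 142 in OFF-BC, with rod libraries at 300.4 to 382 and blue cone libraries at 427 to 499. The part of the shared stretch in the *Dbp* values was not tested.

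**Figure D2:**
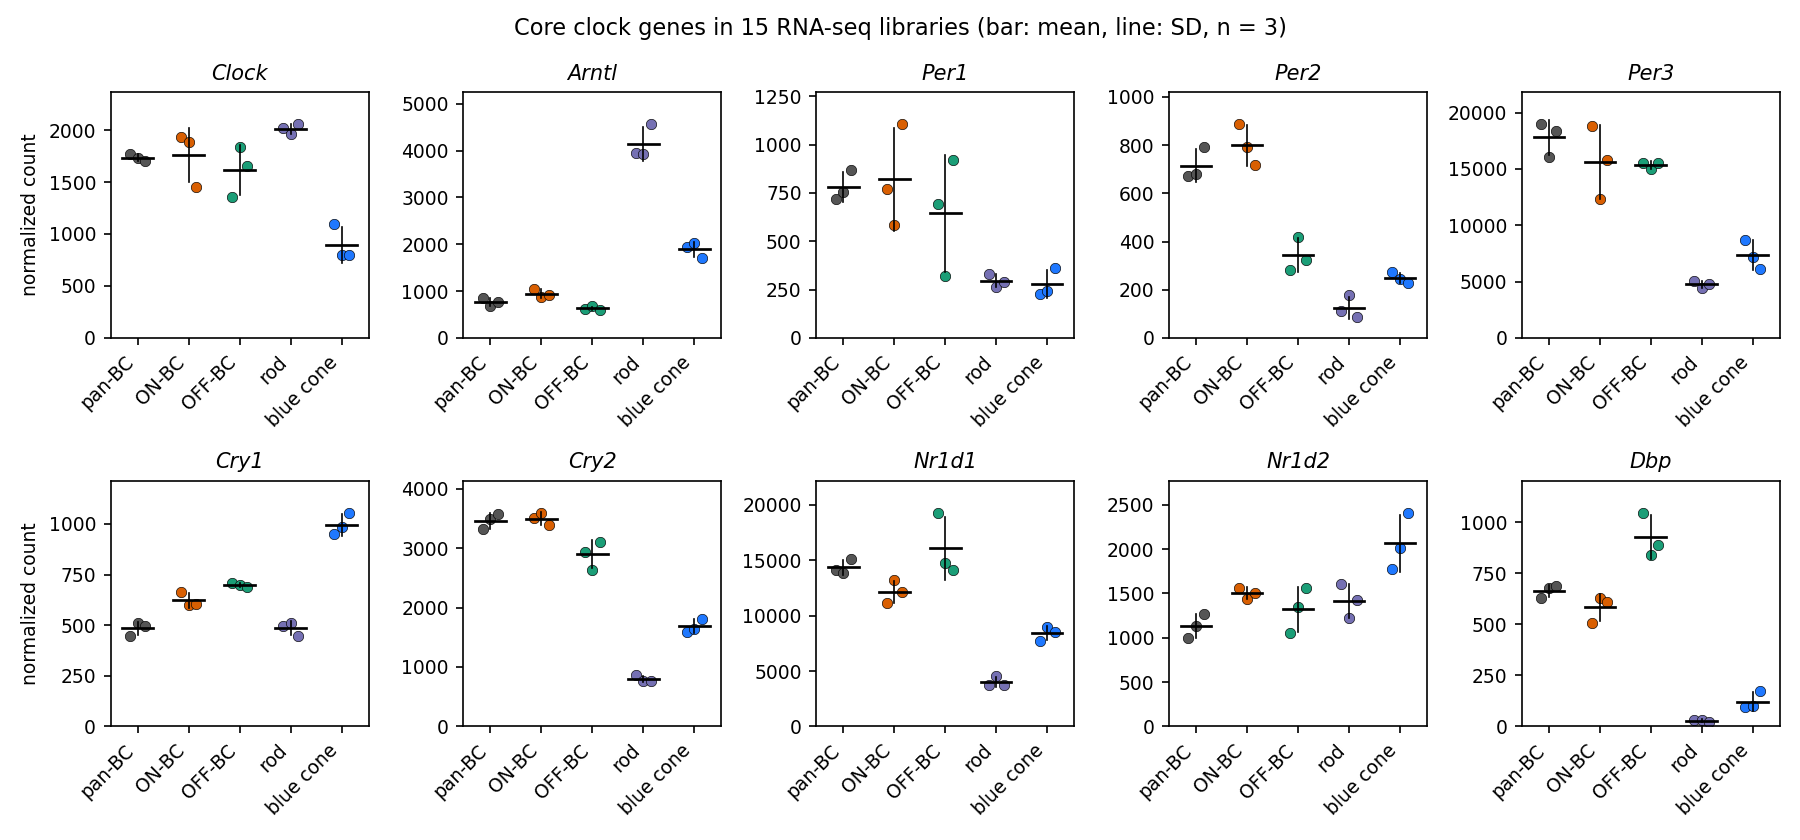
Normalized counts (y axis, linear from 0) of the 10 core clock genes in the 15 RNA-seq libraries of 5 populations (points: libraries; bar: mean; vertical line: SD, n = 3). The rod points of *Arntl* lie at 3919 and above, and those of *Dbp* at 33 and below.

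Within bipolar cells the differences were smaller, and *Per2* showed the largest of the 10. Between ON-BC and OFF-BC, *Per2* was 2.35-fold higher in ON-BC (log2 1.23, SE 0.21, adjusted p against 0 = 0.000248), with every ON-BC library above every OFF-BC library. *Arntl* was 1.496-fold higher in ON-BC (0.58, adjusted p = 0.000785), again without overlap. Both calls were kept without OFF-BC replicate 3, the library with the high cone marker sum (1.20, adjusted p = 0.00142, and 0.55, adjusted p = 0.00427).

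The other 3 calls at any difference rested on single libraries. *Dbp* was lower in ON-BC by 0.67 (adjusted p = 0.0299), *Nr1d1* lower by 0.39 (adjusted p = 0.0371) and *Cry2* higher by 0.28 (adjusted p = 0.0353). Without ON-BC replicate 1, ON-BC replicate 3 or OFF-BC replicate 1, *Arntl* and *Per2* alone remained, 2 of 10. *Clock* (0.12, interval -0.18 to 0.42), *Per1* (0.43, interval -0.21 to 1.06), *Per3* (0.01, interval -0.32 to 0.34), *Cry1* (-0.17, interval -0.38 to 0.04) and *Nr1d2* (0.20, interval -0.11 to 0.52) were not called. The interval of *Per1* does not leave out a 2-fold difference. Same-numbered ON-BC and OFF-BC libraries come from mice of the same age (43, 48 and 42 days for replicates 1, 2 and 3).

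Levels of different genes can be compared per length, as normalized counts per kb of RefSeq exon. In rods the order by mean level per kb was *Nr1d1* at 1448, *Arntl* at 1416, *Per3* at 786, *Nr1d2* at 305, *Clock* at 203, *Cry2* at 200.2, *Cry1* at 161, *Per1* at 62.6, *Per2* at 21.4 and *Dbp* at 17.2. In pan-BC it was *Nr1d1* at 5196, *Per3* at 2942, *Cry2* at 865, *Dbp* at 395, *Arntl* at 263, *Nr1d2* at 244, *Clock* at 175, *Per1* at 165, *Cry1* at 161 and *Per2* at 122. *Arntl* thus stood next to its repressor *Nr1d1* in rods and far below it in bipolar cells. The ratio of *Nr1d1* to *Arntl*, both per kb, was 0.99, 1.23 and 0.87 in the rod libraries, 4.23, 4.73 and 5.29 in blue cones, 17.5, 21.4 and 20.7 in pan-BC, 11.3, 16.1 and 13.9 in ON-BC and 33.1, 23.3 and 24.8 in OFF-BC. These ratios did not overlap between any of the 5 populations. The ratio does not depend on how libraries were scaled, and no test was made of it.

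Counting every pair of the 5 populations, 70 of 100 comparisons of a member between 2 populations were called at any difference, against a background of 57.6% over all genes and pairs. Pan-BC and ON-BC differed at 1 member (*Cry1*), pan-BC and OFF-BC at 2 (*Cry1* and *Per2*), and ON-BC and OFF-BC at 5. Bipolar and photoreceptor populations differed at 7 to 10 members in each pair. In the order of levels, *Arntl*, *Cry2*, *Nr1d1*, *Per3* and *Dbp* had rods and blue cones at 1 end with the step between rods and blue cones called, and the steps among the 3 bipolar populations not called for neighbours. Where the order ran from ON-BC through pan-BC to OFF-BC for *Per2*, the step from pan-BC to OFF-BC was called (1.07, adjusted p = 0.00128) and that from ON-BC to pan-BC was not (0.16, adjusted p = 0.802).

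A few genes had a pattern over the 15 libraries close to those of the 3 members with the widest range. Likeness was measured as Pearson's r of log2 values over the 15 libraries, which fall into a few populations and so share most of their variation, and it is given as a description. Closest to *Dbp* were *Fez1* (r = 0.996), *Churc1* (0.996) and *Acyp2* (0.995). Closest to *Per2* were *Wsb2* (0.986), *Sox5* (0.973) and *Amigo2* (0.968), and closest to *Arntl* were *Trafd1* (0.992), *Heatr5a* (0.990) and *Atp11b* (0.989). By Spearman's rho these values were between 0.904 and 0.979. *Fez1*, for example, was at 1738 ± 46.9 (SD, n = 3) in pan-BC, 3233 ± 421 in OFF-BC and 18.2 ± 6.33 in rods, and *Trafd1* at 1045 ± 44.3 in pan-BC and 10846 ± 565 in rods.

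Other genes of the clock and of retinal rhythms moved in both directions. Of a list of 42, 40 passed the filter, and *Mtnr1b* and *Opn4* did not. Of the 40, 11 were called higher and 5 lower in pan-BC when compared with rods at 2-fold (background 27.8% and 15.8%), and against blue cones 10 and 6 (background 22.7% and 13.7%). Between ON-BC and OFF-BC 2 were called higher in each (background 2.95% and 3.6%), and between rods and blue cones 2 were higher in rods (background 4.63%) and 3 in blue cones (background 11.3%). The counts against rods and blue cones were thus near those of all genes. The median absolute log2 difference of the 40 was 1.245 against rods (all genes 1.27) and 0.81 against blue cones (all genes 1.08).

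The 4 further repressors of the list differed in direction, with 2 called higher and 1 lower in pan-BC against either photoreceptor population. *Bhlhe40*, which encodes DEC1, a competitor of CLOCK and BMAL1 at E-boxes, was at 7137, 7242 and 7078 normalized counts in pan-BC and at 32, 5.12 and 38.9 in rods. It was at 65.4, 40.2 and 163 in blue cones, and 3619 to 6534 in ON-BC and OFF-BC, with no overlap between bipolar cells and photoreceptors. The log2 difference was 8.48 (adjusted p = 1.32e-09) against rods and 6.55 (adjusted p = 1.09e-07) against blue cones. *Ciart*, which encodes CHRONO, another repressor of the dimer, was at 2024, 2336 and 1829 in pan-BC, with a mean of 66.8 in rods (47.5 to 88.3) and 103 ± 10.7 (SD, n = 3) in blue cones. Its log2 differences were 4.97 (adjusted p = 8.09e-11) and 4.31 (adjusted p = 1.99e-09). The other two completed the group. *Cipc*, which encodes an inhibitor of CLOCK and BMAL1, was called lower in pan-BC than in rods (pan-BC minus rods -1.75, adjusted p = 9.43e-07) and than in blue cones (-1.96, adjusted p = 7.91e-08), with means of 1038, 3507 and 4046. *Bhlhe41*, which encodes DEC2, had a mean of 28292 in rods and of 11581 in pan-BC (-1.301, adjusted p against 0 = 1.26e-05, against 2-fold 0.154), and its difference from blue cones was 0.09 (interval -0.33 to 0.50).

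In the family of *Dbp*, the PAR bZIP activator *Hlf* was at 6718 ± 217 in pan-BC and 241 ± 16.1 in rods (log2 difference 4.80, adjusted p = 3.63e-14). *Tef*, the remaining PAR bZIP activator, was at 1158 ± 151 in rods and 3687 ± 84.7 in blue cones (rods minus blue cones -1.68, adjusted p = 5.73e-05). In pan-BC *Tef* was at 3823 ± 228, not separated from blue cones (log2 0.05, adjusted p against 0 = 0.674). *Hlf* was called higher in pan-BC than in blue cones (4.16, adjusted p = 1.26e-12). All 3 PAR bZIP genes were thus called higher in pan-BC than in rods: *Dbp*, *Hlf* and *Tef* (1.73, adjusted p = 7.88e-06). Their repressor *Nfil3*, which binds the same D-box, was at 215 ± 12.9 in pan-BC and 75.1 ± 17.3 in rods. *Nfil3* too was thus higher in pan-BC (log2 1.53, adjusted p against 0 = 5.26e-05), though not called at 2-fold (adjusted p = 0.07). Blue cones had a mean of 32.5, and against them *Nfil3* was called at 2-fold (pan-BC minus blue cones 2.77, adjusted p = 1.63e-05).

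*Rorb* encodes a ROR receptor of the retina, a family that activates *Arntl* at the elements where the REV-ERB receptors repress. It was at 11534 ± 958 in pan-BC, with 47901 ± 6610 for rods against 15553 ± 2510 for blue cones. *Rorb* was called higher in rods than in blue cones (log2 1.63, adjusted p = 0.0096) and than in pan-BC (pan-BC minus rods -2.05, adjusted p = 3.54e-05). *Rora*, of the same family, was named after its values were seen. It was highest in blue cones, at 10252 ± 977, with 8212 ± 169 in rods and 6469 ± 268 in pan-BC. The differences of pan-BC were -0.34 from rods (adjusted p against 0 = 0.00447) and -0.66 from blue cones (adjusted p against 0 = 1.34e-05).

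Of the genes that mark rhythms in the retina, *Drd4*, a dopamine receptor of photoreceptors, was at 3747, 4219 and 3885 normalized counts in rods, at 985, 1037 and 1232 in blue cones and at 20.2, 44.4 and 59.95 in pan-BC. Rods lay above blue cones (log2 1.87, adjusted p = 0.0367), and OFF-BC, at 124 ± 20.2, above ON-BC, at 20.7 ± 7.25 (ON-BC minus OFF-BC -2.56, adjusted p = 0.00125). *Gnaz*, a G protein subunit, was at 45.3 ± 5.43 in pan-BC, with 624 ± 38.4 for rods and 257 ± 80.4 for blue cones (-3.76, adjusted p = 1.94e-08, and -2.43, adjusted p = 6.67e-05). *Mtnr1a*, a melatonin receptor, was at 35.3, 41 and 39.2 in blue cones and at 0 in all libraries of pan-BC, ON-BC and rods, for which no fold is given. Listed among the cofactors of the clock and not among these rhythm genes, *Ddb1* encodes a ubiquitin ligase component. Its level was 4674 ± 217 in pan-BC and 20993 ± 2041 in rods (-2.16, adjusted p = 2.31e-08).

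Between ON-BC and OFF-BC, *Adcy1*, an adenylyl cyclase, was at 1387 ± 192 against 86.5 ± 51.7 (log2 4.16, adjusted p = 4.48e-07). *Id2*, an inhibitor of bHLH factors, was at 361 ± 89.5 against 27.8 ± 20.3 (3.86, adjusted p = 8.68e-05). *Timeless*, a replication factor with a debated role in the mammalian clock, was higher in OFF-BC, at 1200.4 ± 162 against 296 ± 73.9 (-2.03, adjusted p = 0.00198). In rods it was at 38.3 ± 9.24 and in blue cones at 126 ± 24.4 (-1.71, adjusted p = 0.0149).

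**Figure D3:**
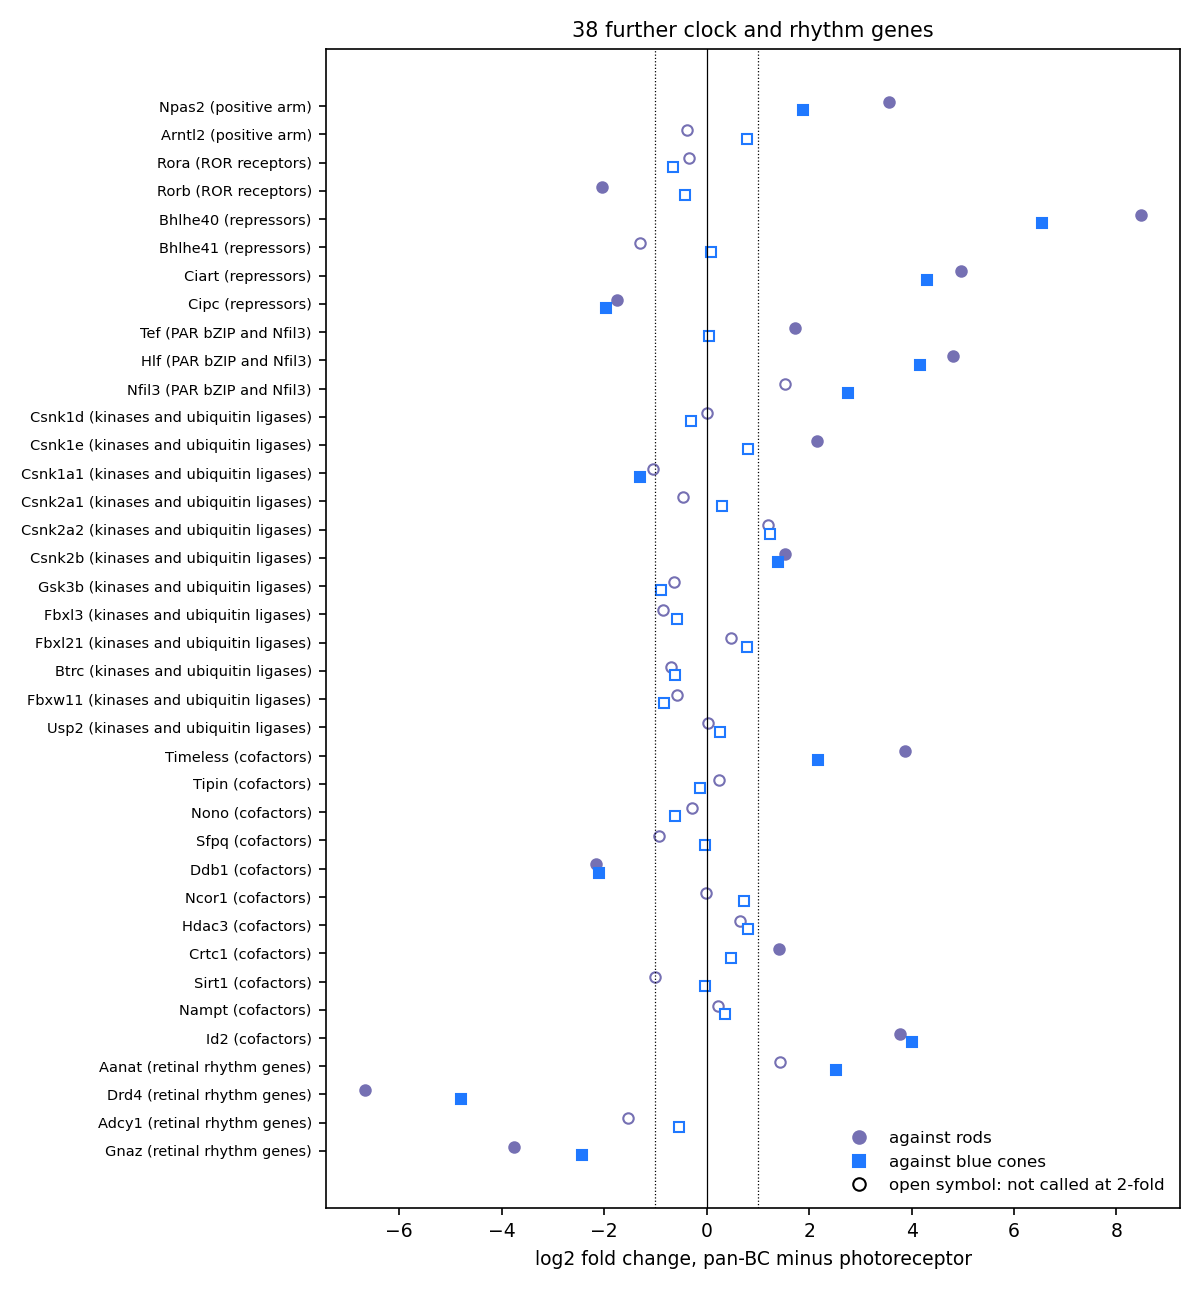
Log2 difference between pan-BC and rods (circles) and between pan-BC and blue cones (squares) for further clock and rhythm genes tested, with their roles in brackets (filled: called at 2-fold; dotted lines: a 2-fold difference; *Mtnr1a*, at 0 in pan-BC, is left out). *Bhlhe40* lies farthest to the right, at 8.48 and 6.55, and *Drd4* farthest to the left, at -6.67 and -4.80.

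Chromatin at the members' promoters was open in every population. A peak called by the authors lay within 1000 bp upstream to 100 bp downstream of a start site of each member in all 14 libraries with peaks (140 of 140 pairs of a gene and a library). The highest enrichment over background at the promoter was between 16.6 and 24.5 for *Cry2* over the libraries and between 2.88 and 8.69 for *Nr1d1*, the lowest of the 10. At a stricter cutoff (−log10 of the q-value above 4) *Nr1d1* kept a peak in 13 of 14 libraries. The peak of ON-BC replicate 2, with an enrichment of 2.88, did not pass. The presence of a peak therefore did not separate the populations. The share of all genes with such a peak was not counted, so this is not shown to be particular to the members.

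Of the 200-bp regions in which reads were counted, 16 had their centre in such a window, and all 16 were tested. Between pan-BC and rods, 15 of the 16 had the higher mean in rods, where 59.5% of all 16495 promoter regions did. The median log2 difference, pan-BC minus rods, was -0.95 for the members and -0.37 for all promoter regions. At 2-fold 3 of 16 were called, all higher in rods, against 31% of promoter regions in either direction, and at any difference 12 of 16, against 71.9%.

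These 3 regions belong to *Per1* and *Nr1d1*. The *Nr1d1* region (chr11:98775263-98775463), which overlaps the promoter sequence given for it, was at 154 and 100.3 normalized ATAC-seq counts in pan-BC, 67.2 and 48.3 in ON-BC and 80.8 and 122 in OFF-BC. Rod libraries had 469 and 436, blue cone libraries 199 and 176, and green cone libraries 226 and 194. Rods lay above all other libraries, and cones above bipolar cells (log2 difference, pan-BC minus rods, -1.86, SE 0.25, adjusted p = 0.00361). The *Per1* region over the CACGTG match (chr11:69098766-69098966) was at 269.6 and 176 in pan-BC, while rod libraries had 707 and 757, blue cone libraries 452 and 442 and green cone libraries 407 and 427. Pan-BC was lowest of these 4, without overlap (pan-BC minus rods -1.74, adjusted p = 0.0102). At the second start site of *Per1* (chr11:69099970-69100170) the values were 159 and 99.2 in pan-BC and 371 and 426 in rods (-1.65, adjusted p = 0.00724).

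These calls rest on few libraries. Without pan-BC replicate 2, 0 of the 16 were called, without rod replicate 2, 1, and the count test of edgeR called 6. With 2 libraries a group, a left-out library leaves 1, which is then assumed to vary like the other groups.

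RNA and promoter accessibility did not point the same way for most members between pan-BC and rods. *Nr1d1*, *Per1*, *Per2*, *Per3*, *Cry2* and *Dbp* had higher RNA in pan-BC and higher accessibility in rods. Of all promoter regions, 59.5% had the higher mean in rods. The share of all genes with RNA and promoter in opposite directions was not counted, so this is not shown to be particular to the members. *Dbp*, for example, had log2 differences of 4.50 for RNA and -0.97 (adjusted p against 0 = 0.000141) for its region at chr7:45704837-45705037, with 335 and 260.0 counts in pan-BC and 579 in both rod libraries. For *Arntl* both were higher in rods (-2.43 and -1.15), with 516 and 429 ATAC-seq counts in pan-BC and 1004 and 1081 in rods. *Nr1d2* differed little in either (-0.32 and -0.03).

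**Figure D4:**
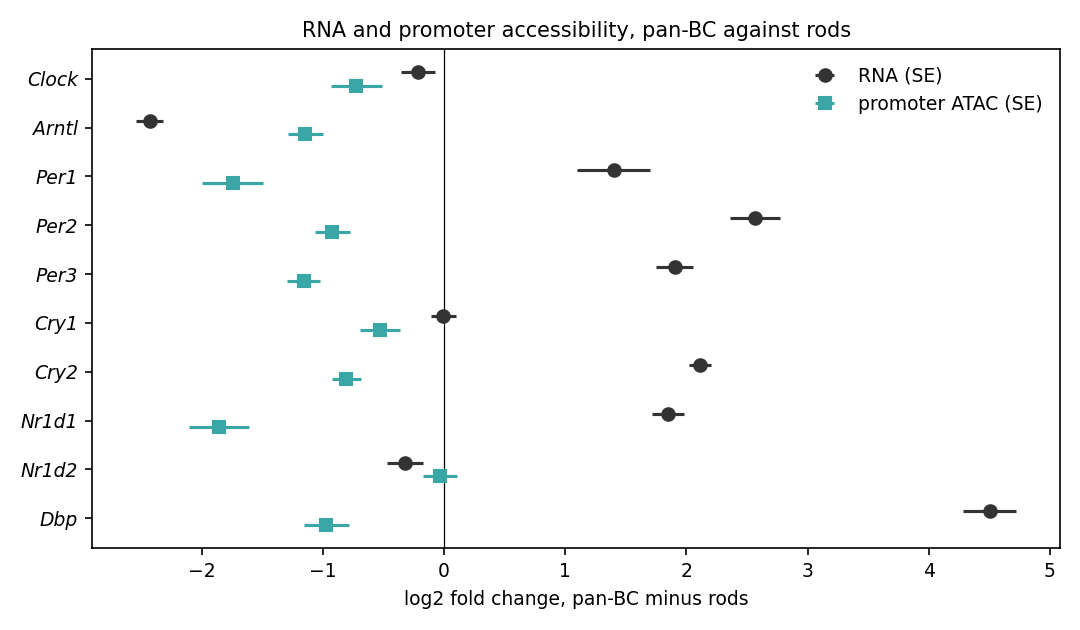
Log2 difference, pan-BC minus rods, of RNA (circles) and of the promoter region with the highest mean ATAC-seq count (squares) for the 10 core clock genes, with SE as lines. All 10 squares lie left of 0, from -1.86 for *Nr1d1* to -0.03 for *Nr1d2*, while the circles run from -2.43 for *Arntl* to 4.50 for *Dbp*.

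In the remaining comparisons no member promoter was called at 2-fold by limma. Against blue cones 0 of 16 were called (background 15.3%) and 10 of 16 at any difference (57% of promoter regions). Against green cones the numbers were 0 (background 12.4%) and 8 (52.7%). Between ON-BC and OFF-BC they were 0 (background 1.27%) and 2 (14.8%), namely the region of *Nr1d1*, lower in ON-BC by 0.79 (adjusted p against 0 = 0.0258), and that of *Cry2*, higher by 0.35 (adjusted p against 0 = 0.0446). Both have the sign of the RNA difference at this scaling. Direction at the promoters between ON-BC and OFF-BC depended on scaling. Of the 16 regions 5 lay higher in OFF-BC as reported, 12 with TMM scaling and 14 with scaling by library totals. Between rods and blue cones they were 0 (background 6.58%) and 6 (49.4%), among them *Nr1d1*, higher in rods by 1.26 (adjusted p against 0 = 0.000654), where its RNA was lower in rods by 1.08 (adjusted p against 0 = 3.26e-06).

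**Figure D5:**
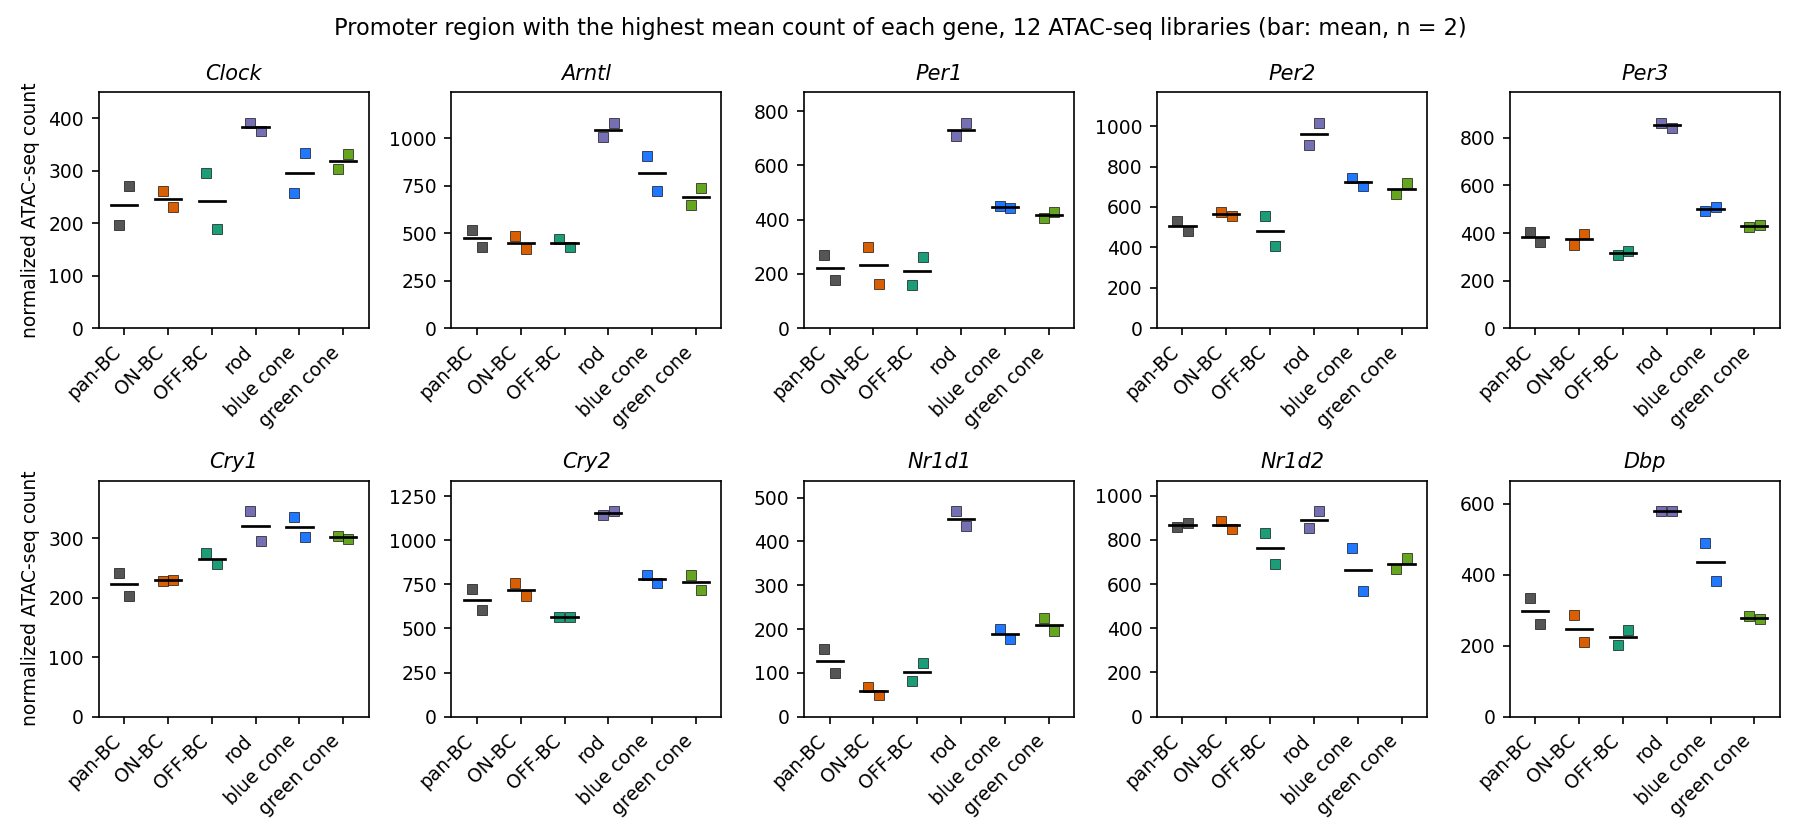
Normalized ATAC-seq counts (y axis, linear from 0) of the promoter region with the highest mean count of each core clock gene in 12 libraries of 6 populations (squares: libraries; bar: mean, n = 2). Rods are highest at *Nr1d1* (436 and 469) and *Per1* (707 and 757), and the bipolar populations lie at 154 and below for *Nr1d1*.

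Of the regions farther away whose nearest start site was that of a member, 66 were tested. Between pan-BC and rods 10 were called higher in pan-BC and 7 higher in rods, together 25.8% of the 66, against 51.6% of all 108448 regions. Against blue cones 2 and 3 were called (background 35.9%), against green cones 2 and 6 (background 32.1%), between ON-BC and OFF-BC 1, higher in OFF-BC (background 7.39%), and between rods and blue cones 1, higher in blue cones (background 10%). *Arntl* had 21 such regions, the most of any member, with 3 called in each direction between pan-BC and rods. These were named after their values were seen: the region at chr7:113190478-113190678, 16887 bp upstream of its start, was at 0 and 1.71 counts in pan-BC and at 88.8 and 61 in rods (log2 -5.50, adjusted p = 6.9e-06). The region at chr7:113226909-113227109, 19498 bp downstream, was at 36 and 23.4 in pan-BC and at 1.56 and 0.68 in rods (3.86, adjusted p = 0.00548). For *Cry2* a region 10214 bp downstream of the start (chr2:92423755-92423955) was at 160.0 and 210.4 in pan-BC, while rod libraries had 29.6 and 28.5, blue cone libraries 209.8 and 164 and green cone libraries 123 and 158. It was thus low in rods alone (pan-BC minus rods 2.62, adjusted p = 6.53e-06, and rods minus blue cones -2.64, adjusted p = 3.79e-05). This region too was named after its values were seen, and its part in *Cry2* RNA was not tested.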

How the data were processed

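The members and all gene lists were chosen with earlier results of these data known. The authors used STAR on GRCm38 and HTSeq on RefSeq genes to make counts per gene from RNA-seq. For ATAC-seq they aligned with Bowtie2, called peaks in each library with MACS2 and counted reads in regions of 200 bp. The strand setting of the counting is not given in the sources used here. The signal values in the deposited tables are these counts divided by 1 size factor per library. Each of the 230384 gene values and 1212862 region values above 0 was a whole multiple of 1 step per library within 0.01 read, so the reads were recovered. The deposited peak lists give a score, the fold enrichment of the summit (a ratio), and the −log10 of the p-value and q-value as the authors' MACS2 runs wrote them. Counted reads were 12329548 to 26266746 per RNA library and 4176776 to 12345845 per ATAC-seq library.

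Genes and regions were filtered by edgeR's filterByExpr on recovered reads, which kept 14024 of 24062 genes and 108448 of 110715 regions. limma (version 3.58.1, R 4.3.3) was fitted to log2(normalized count + 1) of all libraries of an assay, with 1 level per population and a trended prior. Its treat test against a log2 fold change of 1 and its test against 0 were two-sided, adjusted by Benjamini and Hochberg over all features of a contrast and called at 0.05. Fold changes are on the log2(value + 1) scale, which understates those of low genes, and p-values measure the spread between libraries. The labels' group of each sample was used throughout, and no sample was left out. On simulated counts limma called 73 of 100 genes changed 4-fold and 97 of 100 changed 16-fold between pan-BC and rods, 0 unchanged genes, and for regions 14 and 79 of 100 each. Start sites were those of 45756 RefSeq transcripts of GRCm38.p6, and a promoter ran from 1000 bp upstream to 100 bp downstream.

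Named were all 10 members, the up to 3 further clock genes in each direction with the largest called difference per RNA comparison, and the 3 genes most correlated with each of the 3 members of widest range; other named values are said to be chosen after they were seen or complete a gene family. Alternatives were other pseudocounts, no filter, other scalings, edgeR (4.0.16) and DESeq2 (1.42.0) on recovered reads, a replicate block, the compared groups alone and each replicate left out. Scaling by library totals was chosen after seeing the data. One gene that the rule names is not reported here. Green cone libraries 3 and 4 entered with their peaks.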

Additional observations from a re-analysis of the deposited data

How the results depend on the processing

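Of 204 counts of called members recomputed under an alternative, 190 stayed within 1.5 times the reported count and 14 moved. Scaling by library totals called 5 members between pan-BC and blue cones (3 as reported), and it raised the median log2 difference of all genes between pan-BC and rods from 0.21 to 0.55. Fitting the compared groups alone called 3 members between ON-BC and OFF-BC at any difference (5 as reported) and 0 between rods and blue cones (1 as reported). For promoter regions between pan-BC and rods (3 as reported), TMM scaling called 5 and edgeR 6, and edgeR called 2 between pan-BC and blue cones (0 as reported). With each replicate left out in turn the counts ran from 1 to 3 (pan-BC and blue cones), from 2 to 4 (ON-BC and OFF-BC, any difference) and from 0 to 4 (promoter regions, pan-BC and rods). In all other comparisons these counts stayed within 1.5 times the reported one. The cause was not tested, other than that fewer libraries entered.

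Values near 0 changed sign. Between pan-BC and rods, scaling by library totals gave Clock 0.13, Cry1 0.34 and Nr1d2 0.0257, and DESeq2 gave Cry1 0.0013. With 1 replicate left out, Cry1 ran there from -0.0627 (without rod replicate 3) to 0.0509 (without pan-BC replicate 1). Between ON-BC and OFF-BC, Per1 ran from -0.0089 (without OFF-BC replicate 2) to 0.7455 (without OFF-BC replicate 3), and Per3 from -0.1386 (without ON-BC replicate 1) to 0.1699 (without ON-BC replicate 2). Between rods and blue cones, Per1 ran from -0.0225 (without blue cone replicate 1) to 0.3097 (without blue cone replicate 3). No value called at 2-fold changed sign.

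Over all genes, same-numbered ON-BC and OFF-BC deviations correlated at -0.08, 0.22 and -0.07, and those of the other comparisons at -0.08 to 0.08. With 3 libraries a population, these values cannot exclude that same-numbered ON-BC and OFF-BC libraries were paired. Whether they came from the same mice is not given in the sources used here. With the replicate block, 6 members were called between pan-BC and rods, as without it, and no count moved by over 1.5 times. With 2 ATAC-seq libraries a group and 20 to 34 reads of Dbp in rods, small differences there were not detectable at this depth.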
